A study of Mus musculus with 8 samples.

Results

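Chemokine ligands are small secreted proteins that direct the movement of leukocytes and other cells through G protein-coupled receptors on their surface. They are sorted by the spacing of the first conserved cysteines into CC, CXC, CX3C and XC ligands. In lung, epithelium, endothelium, fibroblasts and resident macrophages all make them, some constantly and others on injury or infection, and together they set which blood cells enter the tissue. The members here were taken by gene symbol: every gene that the array annotation names Ccl or Cxcl with a number, and Cx3cl1, Xcl1, Ppbp and Pf4. This gave 37 of the 20842 genes measured, 20 of the CC class, 15 of the CXC class, 1 CX3C ligand and 1 XC ligand.

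Lungs of newborn C57Bl/6J mouse pups were profiled on 1-colour Agilent arrays. Of the 8 samples, 4 came from Fgf10+/- pups, heterozygous for Fgf10, whose product is a mesenchymal growth factor needed for lung growth, and 4 from wild-type pups. All pups of both groups spent postnatal days 0 to 3 in a chamber with 20% oxygen, which the labels call normoxia. The kind of Fgf10 allele, the litters and the sexes were not stated in the sources used here. The p-values measure the spread between the 4 samples of a group, which the submitters call independent. The comparison sets lungs with the heterozygous genotype against wild-type lungs in normoxia. The values are log2 signals as deposited, and 1 unit is a doubling. The same distance in log2 can be compared within a gene, but the signals of different genes cannot be ranked against each other, since each feature binds its own RNA with its own efficiency.

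Fgf10 itself read 7.55, 7.96, 7.96 and 8.33 in the arrays labelled Fgf10+/-, against 7.49, 7.81, 6.89 and 7.64 in those labelled wild type, with overlapping groups. The difference was 0.49 (limma adjusted p = 0.507), and all 10 of its features had a higher mean in the arrays labelled Fgf10+/-. Whether these features lie inside the altered part of the gene is not known here, so the labels could not be checked with them. The sample titles read TG for the arrays called Fgf10+/- here and WT for those called wild type. Fgf10+/- and wild type below mean the arrays so labelled, and every direction rests on the labels. All 12 alveolar type 2 cell markers and all 9 endothelial markers had a mean log2 of at least 4. Wild-type replicate 4 stood apart for genes of neighbouring tissue: its mean log2 over 10 skeletal muscle genes was 8.07, against 4.49 to 4.67 in the Fgf10+/- arrays and 4.79 to 5.02 in the other wild-type arrays. Over 8 cartilage genes it was 7.55, against 3.09 to 3.45 in the Fgf10+/- arrays and 3.14 to 3.46 in the other wild-type arrays. Without that array Cxcl15 differed by -0.53, Ccl2 by 0.69, Ccl7 by 1.32, Ccl8 by 1.19 and Cxcl13 by 0.72.

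Chemokine ligands past an adjusted p of 0.05 in limma numbered 0, as did genes over the whole table of 20842 (0.0%). At an unadjusted p under 0.05 there were 5 ligands, 4 with a higher and 1 with a lower mean in the Fgf10+/- lungs, while over all genes the shares were 4.74% higher and 6.29% lower (2298 genes in all, 11.0%). The groups did not overlap for 3 ligands, Ccl2 and Cxcl13 on the high side and Cxcl15 on the low side. Over all genes they did not overlap for 2.99% on the high side and 4.4% on the low side (7.39% in all). Among the 13004 genes with a mean log2 of at least 4, the shares at an unadjusted p under 0.05 were 5.4% higher and 7.85% lower (13.2% in all), and those with separate groups were 3.94% on the high side and 6.24% on the low side (10.2% in all). Ccl7, Ccl17 and Cxcl10 have a mean log2 of at least 4 only through the Fgf10+/- arrays, since their wild-type means were 3.94, 3.76 and 3.65, so no count of ligands is set against these shares. The median difference over the 37 ligands was 0.10 (Fgf10+/- minus wild type), beside -0.00 over all genes, and 25 ligands had a higher and 12 a lower mean. With both directions together, 13.5% of the ligands had an unadjusted p under 0.05 in limma and 8.11% had separate groups. These shares lay near those over all genes (11.0% and 7.39%). By direction the ligands had more on the high side and all genes more on the low side, which was not tested. The ligands varied more between arrays than other genes did on the median: the SD over the 8 arrays had a median of 0.46 over the 37 ligands and 0.33 over all genes. Of the ligands, 13 had a mean log2 under 4, a bound not far above the array median of 3.47. The members nearest that bound were Ccl17 (4.11) and Cxcl5 (4.15) just above it and Ccl24 (3.70) and Cxcl1 (3.47) just below it.

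**Figure D1:**
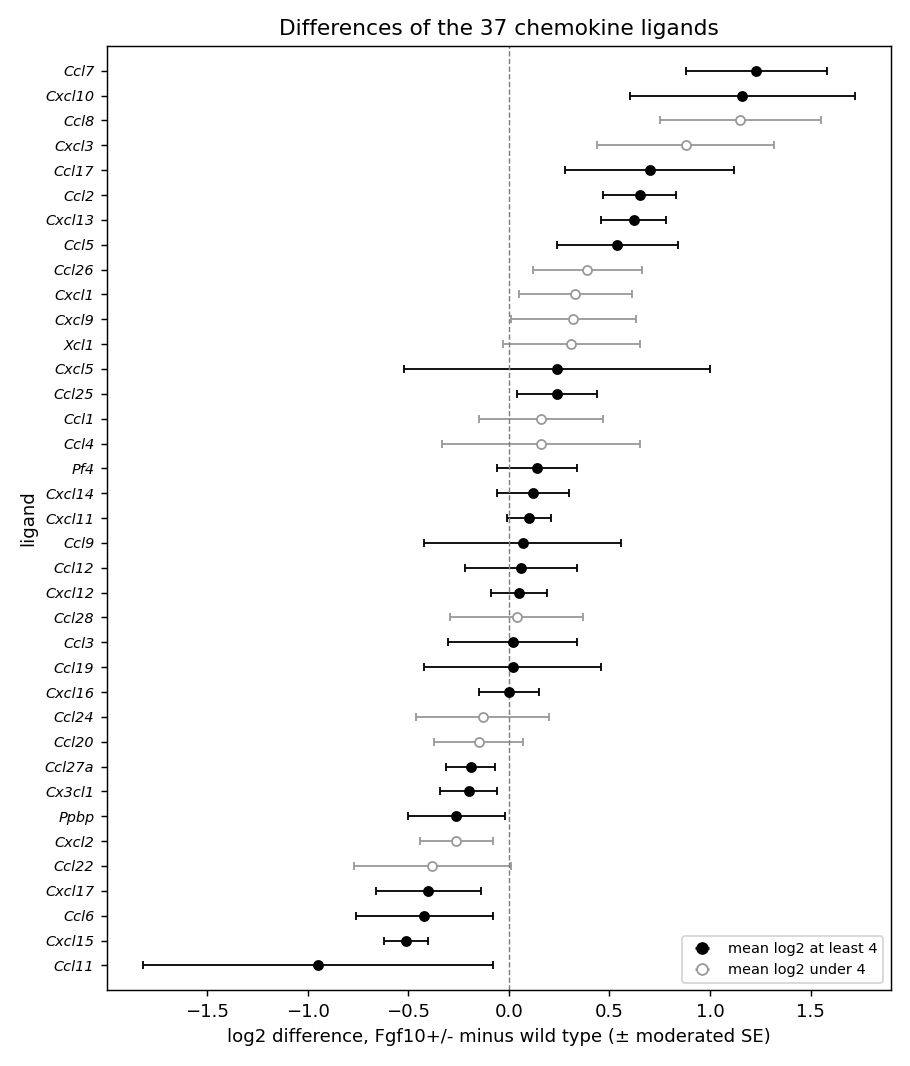
Log2 difference (Fgf10+/- minus wild type, horizontal axis) of each of the 37 ligands with limma's moderated standard error; open grey points are ligands with a mean log2 under 4. Ccl7 (1.23), Cxcl10 (1.16) and Ccl8 (1.15) lie at the top, Cxcl15 (-0.51) and Ccl11 (-0.95) at the bottom, and the bars of Ccl11, Cxcl5 and Cxcl10 are the widest.

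Among the ligands of the Ccl2 group, Ccl2, Ccl7 and Ccl8 had higher means in the Fgf10+/- lungs, by 0.65 to 1.23, and Ccl12 differed by 0.06. These 4 genes encode close relatives, of which Ccl2, Ccl7 and Ccl12 draw monocytes through the receptor CCR2. They lie in 1 stretch of chromosome 11 in the order Ccl2, Ccl7, Ccl11, Ccl12, Ccl8 and Ccl1, with no other protein-coding gene between them. Ccl2, the main signal for monocytes to leave bone marrow and enter tissue, read 6.55, 6.48, 6.18 and 5.80 in Fgf10+/- replicates 1 to 4, against 5.64, 5.67, 5.38 and 5.73 in wild-type replicates 1 to 4. Every Fgf10+/- array lay above every wild-type array, by 0.08 at the closest point. The difference of 0.65 (SE 0.18), or 1.57-fold, had an unadjusted p of 0.00732 and an adjusted p of 0.256 in limma (exact permutation p = 0.0286, two-sided; with 70 assignments no smaller value exists). It lay between 0.55 and 0.80 with any 1 array left out.

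Ccl2 was measured by 10 array features, more than any other ligand, so its signal could be read repeatedly. All 10 features had a higher mean in the Fgf10+/- arrays, with differences from 0.36 to 1.08, and the groups did not overlap on 3 of them. The mean of the 10 features was 6.44, 5.91, 5.78 and 5.37 in Fgf10+/- replicates 1 to 4, against 5.14, 5.08, 5.11 and 5.21 in the wild-type replicates. That mean separated the groups, with a difference of 0.74 (SE 0.21; limma adjusted p = 0.269; exact permutation p = 0.0286). The features read the same 8 RNAs and are not independent measurements. Fgf10+/- replicate 1 was the highest of the 8 arrays on all 10 features.

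**Figure D2:**
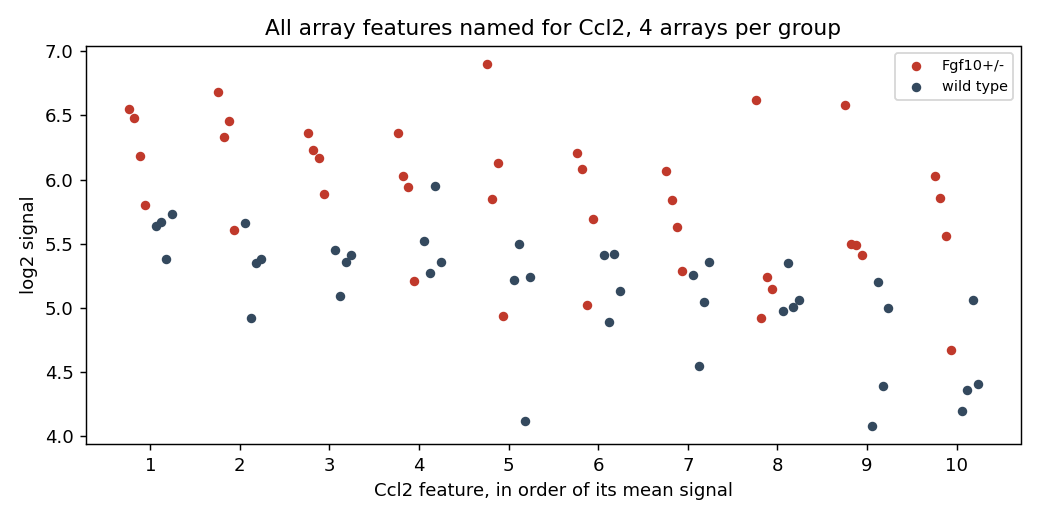
Log2 signal (vertical axis) of the 10 features named for Ccl2, ordered by mean signal, with the 4 Fgf10+/- arrays to the left of the 4 wild-type arrays in each. The Fgf10+/- points lie higher on average in every feature, by 0.36 to 1.08, and the groups are fully apart in 3.

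Ccl7, which attracts monocytes and also eosinophils, read 5.92, 5.12, 5.15 and 4.47 in Fgf10+/- replicates 1 to 4, against 4.55, 3.41, 3.57 and 4.21 in the wild-type replicates. Fgf10+/- replicate 4 lay under wild-type replicate 1, so the groups overlapped there. The difference was 1.23 (SE 0.35), or 2.34-fold, with an unadjusted p of 0.00844 and an adjusted p of 0.261 in limma (exact permutation p = 0.0571). It ranged from 0.98 to 1.46 with any 1 array left out. The wild-type mean of 3.94 lay under 4, and at such low signal the size of the fold is uncertain. Ccl8, a ligand of CCR8 in mouse, had a mean log2 under 4 and read 4.43, 3.77, 3.78 and 2.40 in the Fgf10+/- replicates, against 2.56, 2.02, 2.62 and 2.56 in the wild-type replicates. Fgf10+/- replicates 1 to 3 were higher than all wild-type arrays and replicate 4 lay among them. The difference was 1.15 (SE 0.40; unadjusted p = 0.0194; limma adjusted p = 0.336; exact permutation p = 0.114). Ccl12, whose gene lies beside Ccl8, read 5.34, 4.80, 6.21 and 5.11 in the Fgf10+/- replicates, against 5.29, 5.48, 5.35 and 5.13 in the wild-type replicates, a difference of 0.06 (SE 0.28). Its high value in Fgf10+/- replicate 3 was not shared by Ccl2 or Ccl7. Whether Ccl12 differed from its neighbours in its response was not tested.

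The order of the Fgf10+/- arrays was alike for Ccl2, Ccl7 and Ccl8, with replicate 1 highest and replicate 4 lowest. The mean log2 of 14 macrophage and monocyte markers was 8.48, 8.37, 8.19 and 7.56 in Fgf10+/- replicates 1 to 4, against 8.36, 8.09, 8.25 and 8.08 in the wild-type replicates. That list had 8 members with a higher and 6 with a lower mean and a median difference of 0.05, and 1 member, Cd68, lay under a mean log2 of 4. The groups overlapped in this marker level. Over 9 markers of fibroblasts and mesothelium, which can also make Ccl2, it was 9.60 to 10.65 in the Fgf10+/- arrays and 9.47 to 10.12 in the wild-type arrays, and 8 of the 9 had a higher mean. Dcn, the decorin gene, differed by 0.59 and the collagen gene Col1a2 by 0.35 (unadjusted p of 0.0166 and 0.0213 in limma). The part of either cell type in the Ccl2, Ccl7 and Ccl8 differences was not tested. In bulk lung, a change in the number of producing cells and a change in message per cell cannot be told apart. Without Fgf10+/- replicate 4 the groups were apart for 7 ligands, Ccl2, Ccl7, Ccl8, Cxcl3, Cxcl10 and Cxcl13 high and Cxcl15 low, beside 10.2% of all genes under the same omission. The count was 6 without wild-type replicate 1 (9.72% of all genes), where Ccl7, Ccl17 and Ccl26 joined. It was also 6 without wild-type replicate 2 (10.2% of all genes), where Ccl5, Cxcl1 and Ppbp joined. Ccl2, Cxcl13 and Cxcl15 are in each of these counts by definition, since groups apart with all 8 arrays stay apart when 1 is left out.

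**Figure D3:**
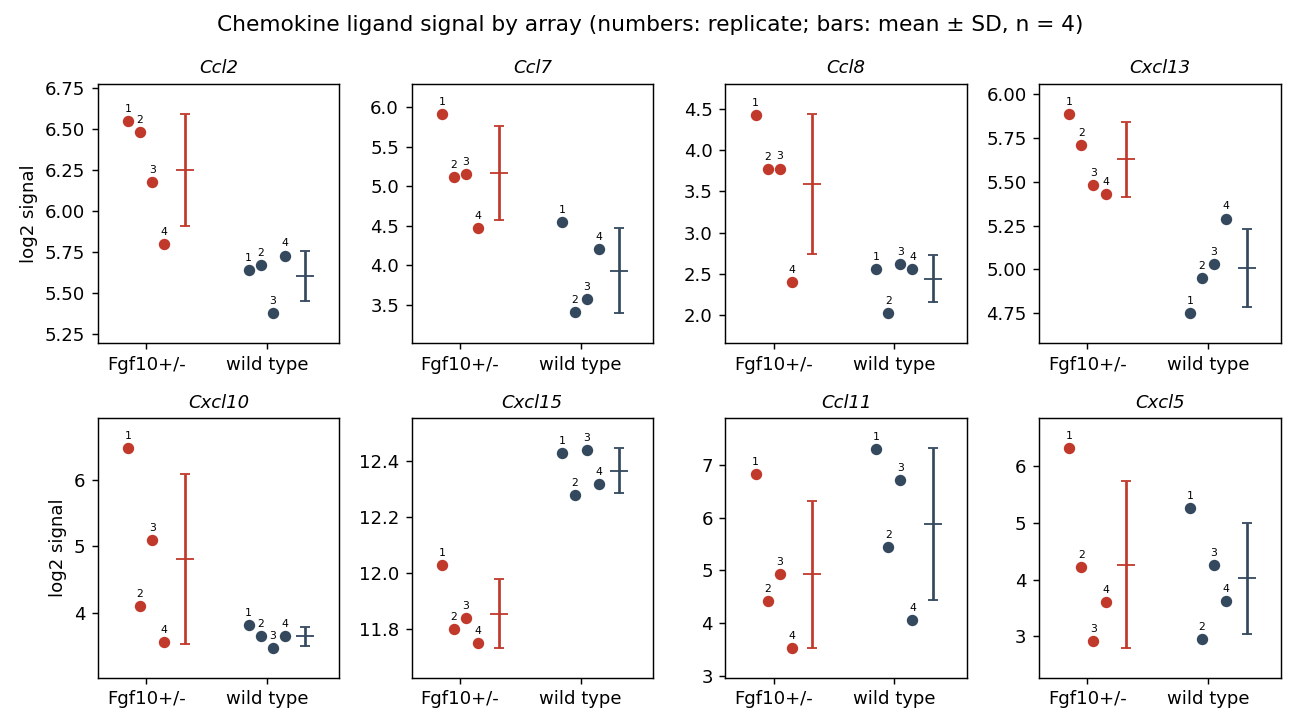
Log2 signal (vertical axis, scaled per gene) of 8 ligands in each array, numbered by replicate, with the mean and SD of each group of 4 (Fgf10+/- left, wild type right). Ccl2, Cxcl13 and Cxcl15 have groups that do not overlap; Ccl11 and Cxcl5 spread widely within both groups.

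Cxcl13, the ligand of CXCR5 that gathers B cells in lymphoid follicles, was the other ligand with separate groups on the high side. It read 5.89, 5.71, 5.48 and 5.43 in Fgf10+/- replicates 1 to 4, against 4.75, 4.95, 5.03 and 5.29 in the wild-type replicates. The lowest Fgf10+/- array stood 0.14 above the highest wild-type array. The difference was 0.62 (SE 0.16), or 1.54-fold, with an unadjusted p of 0.00423 and an adjusted p of 0.22 in limma (exact permutation p = 0.0286). Cxcl12, which holds progenitor cells in their niche through CXCR4, read 11.36, 11.53, 11.50 and 11.57 in the Fgf10+/- replicates, against 11.33, 11.77, 11.21 and 11.46 in the wild-type replicates. The groups overlapped and differed by 0.05 (SE 0.14), and the second Cxcl12 feature differed by 0.32 (SE 0.17). Cxcl14, a ligand of epithelium and fibroblasts, differed by 0.12 (SE 0.18).

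Cxcl15 had the smallest p of all the ligands and was the 1 ligand with separate groups on the low side. Its product, lungkine, is a mouse CXC chemokine made by lung epithelium and released into the airspace, where it draws neutrophils. The signal was 12.03, 11.80, 11.84 and 11.75 in Fgf10+/- replicates 1 to 4, against 12.43, 12.28, 12.44 and 12.32 in the wild-type replicates. All 4 Fgf10+/- arrays lay at least 0.24 below the lowest wild-type array, and the spread within each group (SD 0.12 in Fgf10+/- and 0.08 in wild type) was smaller than the gap. The difference of -0.51 (SE 0.11), a level 0.702 times that of wild type, had an unadjusted p of 0.00133 and an adjusted p of 0.166 in limma (exact permutation p = 0.0286). It lay between -0.57 and -0.47 with any 1 array left out. With a variance trend and robust settings Cxcl15 was the 1 ligand to pass, at an adjusted p of 0.00079, among 414 genes that did. It also passed when the dimmer 50% of genes were dropped (adjusted p = 0.025 in limma).

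Markers of the epithelium had lower means beside Cxcl15. At an unadjusted p under 0.05 in limma 10 of 12 alveolar type 2 and 7 of 10 airway markers had a lower mean (6.29% of all genes), and 0 of either list passed an adjusted p of 0.05. The mean log2 of 12 alveolar type 2 markers was 11.63 to 11.83 in the Fgf10+/- arrays and 12.21 to 12.39 in the wild-type arrays, and all 12 had a lower mean (median difference -0.70), among them Napsa at -0.93 and Cebpa at -0.84 (adjusted p = 0.0767 in limma for both). Sftpc differed by -0.00 and Scgb1a1 by -0.03, both at the top of the scale, where a difference can be hidden. Foxj1 differed by -0.29 (unadjusted p of 0.979, 0.699 and 0.304 in limma for the 3 genes in this order). The mean log2 of 10 airway club and ciliated cell markers was 9.60 to 10.01 in the Fgf10+/- arrays and 10.03 to 10.35 in the wild-type arrays, and all 10 had a lower mean. None of these markers lay under a mean log2 of 4, and their part in the Cxcl15 difference was not tested. Cxcl17, a mucosal ligand of airway epithelium, had a lower mean as well, at 6.98, 6.69, 6.19 and 6.01 in the Fgf10+/- replicates, against 7.14, 6.47, 7.21 and 6.65 in the wild-type replicates. The groups overlapped, and the difference of -0.40 (SE 0.26) had an unadjusted p of 0.165 in limma and ranged from -0.57 to -0.25 (without Fgf10+/- replicate 4) with any 1 array left out. The 7 members of the stretch of chromosome 5 that holds Cxcl15 stand in the order Cxcl5, Ppbp, Pf4, Cxcl3, Cxcl15, Cxcl1 and Cxcl2. Of its neighbours Cxcl3 differed by 0.88 (SE 0.44) and Cxcl1 by 0.33 (SE 0.28), both with a mean log2 under 4.

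None of the other neutrophil attractants had an unadjusted p under 0.05, and 3 of the 5 had a higher mean. Cxcl1, Cxcl2, Cxcl3, Cxcl5 and Ppbp act on neutrophils through CXCR2. Cxcl5, which in lung comes largely from epithelium, read 6.31, 4.22, 2.92 and 3.61 in Fgf10+/- replicates 1 to 4, against 5.26, 2.96, 4.26 and 3.62 in the wild-type replicates. It was highest in replicate 1 of each group and spanned 3.39 units over the 8 arrays, against a group difference of 0.24 (SE 0.76), which was -0.44 without Fgf10+/- replicate 1. The neutrophil marker list and Cxcr2 were highest in the same 2 arrays. The mean log2 of 10 neutrophil markers was 8.92, 7.71, 8.34 and 7.40 in the Fgf10+/- replicates, against 8.74, 7.70, 8.37 and 6.92 in the wild-type replicates. That list was thus also high in replicate 3 of both groups, where Cxcl5 read 2.92 (Fgf10+/-) and 4.26 (wild type). Cxcr2 read 5.70 in Fgf10+/- replicate 1 and 5.53 in wild-type replicate 1, and between 2.88 and 4.01 in the other 6 arrays. Their part in the Cxcl5 signal was not tested.

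Cxcl3 read 4.43, 3.38, 4.77 and 2.58 in the Fgf10+/- replicates, against 2.87, 2.95, 3.02 and 2.81 in the wild-type replicates, so that 3 Fgf10+/- arrays lay above all wild-type arrays and 1 below them. Its difference of 0.88 had an unadjusted p of 0.0817 in limma and ranged from 0.55 (without Fgf10+/- replicate 3) to 1.28 with any 1 array left out. Cxcl2 stayed between 1.59 and 2.47 in all arrays. Ppbp and Pf4 encode chemokines stored in platelet granules. Ppbp differed by -0.26 (SE 0.24), and Pf4 averaged 10.33 ± 0.18 (SD, n = 4) in the Fgf10+/- arrays and 10.19 ± 0.37 in the wild-type arrays. The mean log2 of 11 platelet and megakaryocyte markers was 4.70 to 5.25 in the Fgf10+/- arrays and 4.63 to 5.34 in the wild-type arrays, with 5 members under 4.

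Of the interferon-induced ligands of CXCR3, which recruit activated T cells and natural killer cells, Cxcl10 was high in single Fgf10+/- arrays. It read 6.47, 4.11, 5.10 and 3.56 in Fgf10+/- replicates 1 to 4, against 3.82, 3.65, 3.48 and 3.65 in the wild-type replicates. All 4 wild-type arrays lay under 4, close together at low signal (SD 0.14), and 3 Fgf10+/- arrays exceeded them all, while replicate 4 did not. The difference of 1.16 (SE 0.56) had an unadjusted p of 0.0717 and an adjusted p of 0.503 in limma, and it was 0.61 without Fgf10+/- replicate 1. A second Cxcl10 feature, with a mean of 2.48, read 2.01 in Fgf10+/- replicate 1 and differed by -0.26 (SE 0.29). With the mean of both features the difference of Cxcl10 was 0.45 (SE 0.23). The mean log2 of 15 interferon response genes was 6.11, 5.74, 6.38 and 5.84 in the Fgf10+/- replicates, against 6.19, 5.96, 6.23 and 5.96 in the wild-type replicates. Single members went both ways in Fgf10+/- replicate 1: Gbp2 (8.29), Gbp5 (5.99) and Oas1a (8.24) were highest of the 8 arrays there. Rsad2 (6.00), Usp18 (6.22), Ifit2 (6.63) and Ifng (2.40) were lowest of the 8 arrays there. The part of an interferon response in the Cxcl10 signal was not tested. Among those genes Gbp2, a guanylate-binding protein induced by interferon gamma, differed by 0.53 (unadjusted p = 0.0148) and the transcription factor gene Irf1 by -0.24 (unadjusted p = 0.0587), both with groups apart. Cxcl9 had a mean of 2.69 over all arrays. Cxcl11 is listed as a transcribed pseudogene in the RefSeq table of the C57BL/6J genome. Its brighter feature lay near the top of the scale (15.99) and read 15.19, 15.35, 15.02 and 15.18 in the Fgf10+/- replicates, against 15.15, 15.15, 15.00 and 15.04 in the wild-type replicates, a difference of 0.10 (SE 0.11). The other, with a mean of 9.44, differed by 0.01 (SE 0.26). What the Cxcl11 features bind was not checked, so their signal may not be that of Cxcl11.

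Of the other CC ligands, Ccl5 and Ccl17 had higher means and Ccl6 and Ccl11 lower ones in the Fgf10+/- lungs, all with groups that overlapped. Ccl5, a T cell attractant, read 7.98, 7.90, 7.70 and 7.78 in Fgf10+/- replicates 1 to 4, against 7.00, 8.23, 7.23 and 6.74 in the wild-type replicates. A single wild-type array, replicate 2, lay above all the others, and the difference was 0.54 (SE 0.30; unadjusted p = 0.108 in limma), or 0.85 without that array. Ccl17, a dendritic cell product that attracts CCR4-bearing T cells, read 4.25, 4.63, 4.35 and 4.63 in the Fgf10+/- replicates, against 4.94, 3.04, 2.97 and 4.09 in the wild-type replicates. Its wild-type arrays were scattered (SD 0.94) and its Fgf10+/- arrays close together (SD 0.19). The difference was 0.70 (SE 0.42), or 1.10 without wild-type replicate 1 and 0.44 without wild-type replicate 3.

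Ccl11, or eotaxin, which draws eosinophils through CCR3, varied most of all the ligands, with an SD of 1.41 over the 8 arrays. It read 6.84, 4.42, 4.93 and 3.53 in Fgf10+/- replicates 1 to 4, against 7.30, 5.44, 6.72 and 4.05 in the wild-type replicates. Replicate 1 was the highest and replicate 4 the lowest in each group. The difference of -0.95 (SE 0.87) had an unadjusted p of 0.306 in limma and ranged from -1.59 to -0.48 with any 1 array left out. Over 10 mast cell and eosinophil markers, 3 of them under 4, the mean log2 was 5.38 to 5.95 in the Fgf10+/- arrays and 5.15 to 5.59 in the wild-type arrays. Epx, a defining eosinophil gene, was among those under 4. Ccl6 and Ccl9 are macrophage and myeloid cell products of mouse. Ccl6 read 11.29, 11.17, 11.44 and 10.48 in the Fgf10+/- replicates, against 12.12, 11.39, 11.88 and 10.70 in the wild-type replicates, a difference of -0.42 (SE 0.34). It ranged from -0.22 to -0.70 with any 1 array left out, and without wild-type replicate 4, where it was -0.70, the unadjusted p was 0.0394 in limma (adjusted p = 0.359). Replicate 4 was the lowest in each group for both genes. Ccl9 read 9.31, 8.05, 8.08 and 7.45 in the Fgf10+/- replicates, against 8.92, 7.97, 8.60 and 7.13 in the wild-type replicates, a difference of 0.07 (SE 0.49).

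The remaining ligands with a mean log2 of at least 4 differed by 0.24 or less in size. Ccl3, an inflammatory ligand made by macrophages, differed by 0.02 (SE 0.32) and Ccl19, which guides cells through CCR7 into lymphoid tissue, by 0.02 (SE 0.44). The other 2 Ccl19 features differed by 0.23 and -0.54. Ccl25, the ligand of CCR9 on thymocytes and gut lymphocytes, differed by 0.24 (SE 0.20), and Ccl27a, a keratinocyte ligand of CCR10, by -0.19 (SE 0.12). Ccl27a has near-identical copies in the mouse genome, so its signal may be shared with them. Of the membrane-bound ligands Cx3cl1, which holds CX3CR1-bearing monocytes, differed by -0.20 (SE 0.14), and Cxcl16 averaged 6.83 ± 0.14 (SD, n = 4) in the Fgf10+/- arrays and 6.83 ± 0.26 in the wild-type arrays. The 13 ligands under a mean log2 of 4 ranged from 1.59 to 4.77 over all arrays and did not reach 5 in any. Their differences ran from -0.38 to 1.15, with 9 higher and 4 lower means. They were Ccl1, Ccl4, Ccl8, Ccl20, Ccl22, Ccl24, Ccl26, Ccl28, Cxcl1, Cxcl2, Cxcl3, Cxcl9 and Xcl1. Of these Ccl4, which varied most after Ccl8 and Cxcl3, read 3.73, 4.26, 2.85 and 2.55 in the Fgf10+/- replicates, against 2.88, 2.92, 4.37 and 2.58 in the wild-type replicates.

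**Figure D4:**
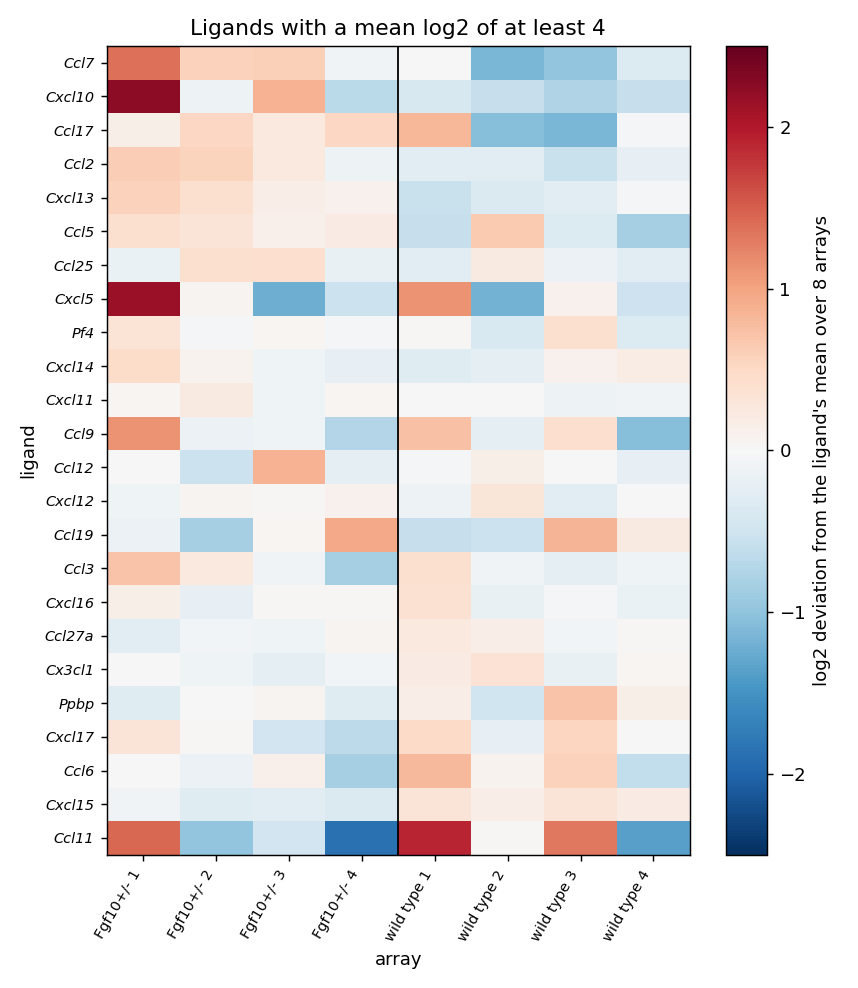
Deviation of each array (columns, Fgf10+/- left of the line) from the ligand's mean over the 8 arrays, for the 24 ligands with a mean log2 of at least 4, ordered by difference; red is above and blue below. Replicate 1 of both groups is red for Ccl11, Ccl9, Ccl3 and Cxcl5, and Cxcl15 is blue in all 4 Fgf10+/- arrays and red in all 4 wild-type arrays.

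Promoters of 5 ligands are shown to set their sequence beside their values. Ccl8 had a difference of 1.15 and its neighbour Ccl12 one of 0.06, Cxcl10 was high in single arrays, Cxcl13 had groups apart on the high side, and Cxcl15 on the low side. Each window runs from 250 bases before to 50 bases after the transcript start, from RefSeq on GRCm38.p6, 5′ to 3′ on the gene's strand. The windows are chr11:82114935-82115234 on the plus strand for Ccl8, chr11:82101595-82101894 on the plus strand for Ccl12, chr5:92348840-92349139 on the minus strand for Cxcl10, chr5:95956689-95956988 on the plus strand for Cxcl13 and chr5:90794284-90794583 on the plus strand for Cxcl15. Capitals mark matches, on either strand, to the kappaB consensus bound by NF-kB, to the AP-1 site TGANTCA, to the interferon response core (GAAA, any 2 bases, GAAA), to the C/EBP core (TTGC, any 2 bases, AA), to the forkhead site TGTTTAC and to the TATA box TATAAA.
Ccl8: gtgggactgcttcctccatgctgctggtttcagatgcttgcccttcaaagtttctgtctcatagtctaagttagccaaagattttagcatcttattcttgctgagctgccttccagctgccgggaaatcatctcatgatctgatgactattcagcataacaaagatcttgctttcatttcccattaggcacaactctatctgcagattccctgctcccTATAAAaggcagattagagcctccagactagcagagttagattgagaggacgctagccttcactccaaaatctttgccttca
Ccl12: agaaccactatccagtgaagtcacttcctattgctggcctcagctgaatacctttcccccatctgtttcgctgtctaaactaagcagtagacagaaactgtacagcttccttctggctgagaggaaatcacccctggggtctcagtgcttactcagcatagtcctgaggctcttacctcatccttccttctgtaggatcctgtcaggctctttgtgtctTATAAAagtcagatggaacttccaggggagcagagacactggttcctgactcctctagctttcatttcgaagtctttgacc
Cxcl10: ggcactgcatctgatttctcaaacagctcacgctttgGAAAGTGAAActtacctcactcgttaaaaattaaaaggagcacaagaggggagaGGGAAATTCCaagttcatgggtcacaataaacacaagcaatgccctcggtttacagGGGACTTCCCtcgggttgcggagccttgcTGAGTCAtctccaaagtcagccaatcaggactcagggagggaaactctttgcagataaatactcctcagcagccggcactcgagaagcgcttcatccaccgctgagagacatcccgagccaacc
Cxcl13: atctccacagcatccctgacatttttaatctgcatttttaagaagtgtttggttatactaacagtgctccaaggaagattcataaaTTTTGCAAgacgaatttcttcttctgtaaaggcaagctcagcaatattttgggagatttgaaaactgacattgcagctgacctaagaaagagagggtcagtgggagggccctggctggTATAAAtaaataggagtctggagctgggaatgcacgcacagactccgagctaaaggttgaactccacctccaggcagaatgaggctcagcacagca
Cxcl15: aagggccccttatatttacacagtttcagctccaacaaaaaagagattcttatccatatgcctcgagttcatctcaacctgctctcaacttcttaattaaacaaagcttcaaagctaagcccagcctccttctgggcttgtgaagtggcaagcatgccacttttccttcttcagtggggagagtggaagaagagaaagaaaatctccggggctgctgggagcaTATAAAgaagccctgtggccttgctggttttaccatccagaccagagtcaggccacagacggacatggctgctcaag

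Cxcl10 held 2 kappaB matches, 1 AP-1 match and 1 interferon response core, and no TATAAA. A kappaB match was found in 4.51% of all 32851 promoter windows and an interferon response core in 3.44%. Ccl8, Ccl12 and Cxcl15 each held TATAAA, present in 13.6% of windows, and none of the other motifs searched. Cxcl13 held TATAAA and 1 C/EBP match (10.8% of windows). Promoter windows were at hand for 26 of the 37 ligands, of which 7 held a kappaB match, 6 an AP-1 match (7.81% of all windows), 3 an interferon response core, 3 a C/EBP match, 10 TATAAA and 0 a forkhead site (3.65% of all windows). No 2 of the matches shown overlapped. Each match describes letters and not a bound site. Ccl2 and Ccl7 are named only.

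The list of chemokine receptors and decoy receptors had 22 measured genes, 11 of them with a mean log2 under 4, and 0 passed an adjusted p of 0.05 in limma. At an unadjusted p under 0.05 there were 3 with a higher mean (Cxcr3, Cxcr6 and Ccr6) and 0 with a lower one, beside 4.74% and 6.29% of all genes. Cxcr3, the receptor of Cxcl9, Cxcl10 and Cxcl11 on activated T and natural killer cells, read 4.80, 4.61, 5.31 and 4.35 in Fgf10+/- replicates 1 to 4, against 4.25, 3.47, 4.04 and 3.56 in the wild-type replicates. The wild-type mean of 3.83 lay under 4, so Cxcr3 has a mean log2 of at least 4 only through the Fgf10+/- arrays. Every Fgf10+/- array lay above every wild-type array, and the difference was 0.94 (SE 0.25; unadjusted p = 0.00588; limma adjusted p = 0.238; exact permutation p = 0.0286).

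Cxcr6, the receptor of Cxcl16, read 7.01, 6.15, 6.61 and 5.39 in the Fgf10+/- replicates, against 5.62, 4.98, 4.27 and 4.58 in the wild-type replicates. Fgf10+/- replicate 4 lay below wild-type replicate 1, and the difference was 1.43 (SE 0.40; unadjusted p = 0.00722; limma adjusted p = 0.256; exact permutation p = 0.0571). Its ligand Cxcl16 differed by -0.00. Ccr6, the receptor of Ccl20, differed by 0.71 (SE 0.25, unadjusted p = 0.0218 in limma), while Ccl20 had a mean log2 of 2.17. The wild-type mean of Ccr6 was 3.76, so Ccr6 too has a mean log2 of at least 4 only through the Fgf10+/- arrays. Over 14 markers of lymphocytes, natural killer and dendritic cells, which also carry these receptors, the mean log2 was 5.44 to 5.90 in the Fgf10+/- arrays and 5.55 to 5.72 in the wild-type arrays (median difference 0.01; 3 members under 4).

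Of the ligands with separate groups, the receptors of Ccl2 and Cxcl13, chosen after their values were seen, had overlapping groups. No receptor is given here for Cxcl15. Ccr2, the receptor of Ccl2 and Ccl7, averaged 5.89 in the Fgf10+/- arrays and 5.83 in the wild-type arrays, a difference of 0.06 (SE 0.26). Cxcr5, the receptor of Cxcl13, read 3.13, 4.97, 5.75 and 5.64 in the Fgf10+/- replicates, against 3.10, 4.76, 3.49 and 4.65 in the wild-type replicates, a difference of 0.87 (SE 0.64).

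**Figure D5:**
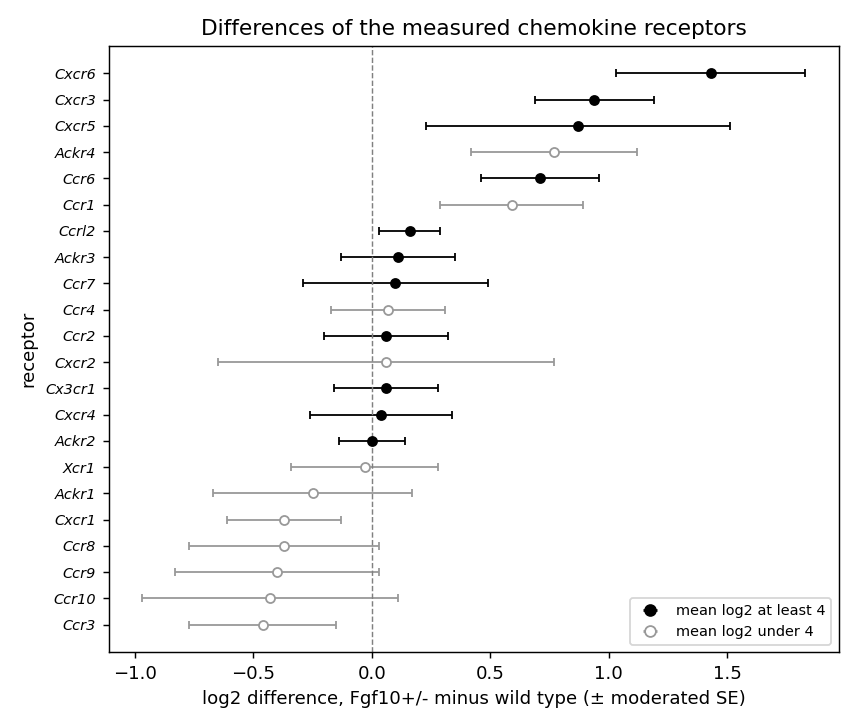
Log2 difference (Fgf10+/- minus wild type, horizontal axis) of the 22 measured chemokine receptors with limma's moderated standard error; open grey points have a mean log2 under 4. Cxcr6 (1.43) and Cxcr3 (0.94) lie at the top, and Ccr2 (0.06) close to 0.

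Genes that shape the supply of chemokines were also read. Of 8 genes for enzymes that cut chemokines and for syndecans that bind them, the 2 with the smallest p were Sdc1 at -0.47 (unadjusted p = 0.0262), a heparan sulfate proteoglycan of epithelium, and Dpp4 at -0.39 (unadjusted p = 0.035), a protease that trims chemokine ends. The third with an unadjusted p under 0.05 was the elastase gene Mmp12 at 0.46 (unadjusted p = 0.0471 in limma), with a mean log2 under 4. Past the adjusted threshold in limma there were 0 of the 8. Of 20 genes of the NF-kB and cytokine response, which commonly accompany Ccl2, 1 had a higher and 5 had a lower mean at an unadjusted p under 0.05, beside 4.74% and 6.29% of all genes. The endothelial adhesion gene Vcam1 was the higher one (0.26, SE 0.09, unadjusted p = 0.0239, chosen after its values were seen). Csf2, a growth factor for alveolar macrophages, differed by -0.79 (SE 0.18; unadjusted p = 0.00244; limma adjusted p = 0.19) with groups apart, and Il18, an epithelial cytokine, by -0.56 (SE 0.16; unadjusted p = 0.00854). The list's median difference was -0.08, beside -0.00 over all genes. Ear2 (-0.89) and Siglecf (-0.64), both expressed by alveolar macrophages, had the smallest p of the macrophage and monocyte list (adjusted p of 0.164 and 0.407 in limma). In that list 8 of 14 had a higher mean, but at an unadjusted p under 0.05 in limma 0 were higher and 3 lower. The third lower one was Mertk at -0.32 (unadjusted p = 0.0424 in limma). Marco, Chil3 and Car4, also expressed by alveolar macrophages, differed by -0.39 (SE 0.33), 0.83 (SE 0.97) and 0.07 (SE 0.13).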

How the data were processed

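RNA of 8 lungs was amplified with an Agilent kit, labelled with Cy3 and hybridised to 1-colour arrays, per the labels' protocols. The deposited values are log2 signals of 62976 features, already brought to a common distribution: sorted values differed by at most 0.0042 between arrays. Per the submitters' processing notes the authors used limma. How background was corrected, and which spots were dim or saturated, was not stated there. Of the features, 31465 had 1 symbol, 0 several and 31511 none in the platform annotation. Symbols were updated by accession (29050 matched, 2933 changed, none of a ligand). Blanks removed 40 of the named features, and the feature with the highest mean stood for each of 20842 genes. Pairs of arrays correlated between 0.977 and 0.986, and no 2 were identical.

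Groups came from the titles, with TG taken as Fgf10+/- and WT as wild type. limma 3.58.1 in R 4.3.3 was fitted to all genes with group as the only term (two-sided, Benjamini-Hochberg over all genes, threshold 0.05; standard errors are moderated) and tested on simulated data. Exact permutation tests ran over 70 assignments. Precision is limited by the number of arrays, 4 a group. Without slide or scan date in the labels, batches could not be tested. By rule, all arrays are given for the 8 ligands with the largest SD, those whose groups do not overlap and the 4 with the highest mean, and from each gene list the 2 genes with the smallest p could be named. Array values of Ccl5, Ccl9, Ccl12, Cxcl17 and of receptors other than Cxcr3 were added after they were seen. Members, lists, naming rule and alternatives were chosen with earlier results of these data known. One gene of the family is not reported here. Alternatives were another summary of features, scaling, filters on low signal, variance trend, a replicate block, weights for arrays and left-out arrays. Figures were drawn with matplotlib 3.10.9.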

Additional observations from a re-analysis of the deposited data

Results flagged for a closer look

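In each group of 4 arrays, the gap of the farthest array to its nearest neighbour was divided by the range of the group and set against Dixon's critical value for 4 values. Of 74 groups (37 ligands, each in the Fgf10+/- and the wild-type arrays), 2 exceeded it, and chance alone flags about 1 in 20. Ccl8 had a ratio of 0.897 in the wild-type arrays, where replicate 2 lay low at 2.02 beside 2.56 to 2.62 in the others. Ccl26 had a ratio of 0.863 in the wild-type arrays, where replicate 1 read 2.40 beside 1.67 to 1.77. Both genes had a mean log2 under 4.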

How the results depend on the processing

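The count of genes past an adjusted p of 0.05, 0 in the fit reported, was 104 with genes of a mean log2 under 4 left out, 288 with the dimmer 50% left out, 414 with a variance trend and robust settings, 3 with array weights, and 0 to 1 with any 1 array left out (1 without wild-type replicate 4). Ligands past it numbered 1, Cxcl15, with the dimmer 50% left out and 1, again Cxcl15, with the variance trend. Ligands at an unadjusted p under 0.05, 5 as reported, were 12 of 56 with every feature on its own (6 of them Ccl2 features; 10.4% of all features) and 2 of 15 with the dimmer 50% left out (18.3% of all genes). Ligands with separate groups, 3 as reported, were 6 with every feature on its own (3 of them Ccl2 features; 7.03% of all features), 3 to 7 with any 1 array left out (9.72% to 13.7% of all genes) and 6 without wild-type replicate 4 and Fgf10+/- replicate 3 together (19.2%). The median difference of 0.10 moved by less than the spread between arrays (SD 0.14) under all 19 alternatives. That spread is wider than the median itself, so this is a loose bound. The median was 0.05 with the dimmer 50% left out and 0.15 with every feature on its own.

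Of 498 differences of 27 ligands under these alternatives, 466 kept their direction and side of the threshold, 2 (both Cxcl15) newly passed it, and 30 of 10 ligands changed sign, with the cause not tested. With the mean of all features Ccl19 differed by -0.10 and Ccl25 by -0.09. Cxcl16 differed by 0.01 after further quantile normalization, 0.02 after centring on the median and 0.00 on the 75th percentile. With array weights Ccl12 differed by -0.08, Ccl3 by -0.09 and Ccl9 by -0.21, and without wild-type replicate 4 and Fgf10+/- replicate 3 Ccl12 differed by -0.29 and Ccl9 by -0.23. With any 1 array left out the ranges were -0.23 to 0.24 for Ccl12, -0.30 to 0.31 for Ccl19, -0.21 to 0.30 for Ccl3, -0.14 to 0.56 for Ccl4, -0.30 to 0.32 for Ccl9, -0.03 to 0.15 for Cxcl12, -0.01 to 0.21 for Cxcl14, -0.06 to 0.12 for Cxcl16 and -0.44 to 0.69 for Cxcl5. Same-numbered arrays had correlated deviations of 0.11, 0.02, 0.02 and 0.08 for numbers 1 to 4, so the numbers were not taken to pair the samples; with the replicate block 0 genes passed, 7 ligands had an unadjusted p under 0.05 (11.8% of all genes), the 2 added being Ccl11 (p = 0.0145 in limma) and Ccl6 (p = 0.0362 in limma), and the median difference was 0.10. Separate groups were not counted under the variance trend, array weights or the block. For the 13 ligands with a mean log2 under 4, low signal limits what a difference can show.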

Other observations

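Several ligands were highest in replicate 1 of both groups. Among the 24 ligands with a mean log2 of at least 4 this held for 7, or 29.2%: Ccl3, Ccl7, Ccl9, Ccl11, Cxcl5, Cxcl10 and Cxcl16. Among all 13004 genes of that level it held for 8.66%. Cxcl5 (4.15) and Cxcl10 (4.23) reached that level only through their replicate 1 values, and Ccl7 and Cxcl10 only through the Fgf10+/- arrays. The level thus depends in part on the trait counted, so no excess over all genes is read from these shares. The same count was 0 for replicate 2, 1 (Ppbp) for replicate 3 and 0 for replicate 4, beside 4.68%, 7.76% and 10.3% of all genes. Replicate 4 was the lowest in both groups for 4 ligands, Ccl6, Ccl9, Ccl11 and Ccl25, or 16.7%, beside 9.39% of all genes. These shares were noticed in the data and not tested, and the labels do not say that a replicate number marks a shared litter or day.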
